A study of Homo sapiens with 13 samples.

Results

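The genes that license, build and drive DNA replication were examined in MDA-MB-231 cells, an established human line of triple-negative breast cancer with a mesenchymal phenotype. The list comprised 43 protein-coding genes of 19894 with a canonical transcription start site (TSS), chosen by name for their role, and each was found by its symbol. The cells were untreated and kept in standard culture, so the study holds a single condition and no comparison of treatments, and the line is the only model in it. ChIP-seq had been carried out for CTCF, RNA polymerase II (Pol II), H3K27ac, H3K4me3 and H3K4me1 in 2 replicates, whereas the immunoprecipitates of p300/CBP had been pooled into 1 library. The 2 input libraries were not analysed here. The data are 6 lists of peak positions on hg19, made after the replicates had been merged, and they hold no height, count or score. A gene therefore either has a listed region or has none, the depth behind each list is unknown, and differences between replicates cannot be given.

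Replication begins with the origin recognition complex, which, with CDC6 and CDT1, loads the ring of MCM2 to MCM7 onto DNA in G1. In S phase CDC45 and the GINS complex join the ring and turn it into the active helicase, the clamp loader RFC sets the PCNA clamp around DNA, and polymerases copy the strands. Cyclin D1 with CDK4, and then cyclin E with CDK2, release E2F factors from the retinoblastoma protein, and E2Fs switch on many of the genes named here. Cyclin A2, cyclin B1 and CDK1 act later, and their promoters are known for CCAAT boxes and for an element called CHR. H3K4me3 and H3K27ac mark active promoters, H3K4me1 flanks them and marks enhancers, p300 and CBP are the acetyltransferases that often sit at active enhancers, and CTCF marks insulators and loop anchors.

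The labels of the cells were checked against marker genes first. The promoters of 7 of 7 mesenchymal or basal markers (VIM, ZEB1, SNAI2, CD44, FOSL1, EGFR and CAV1) held H3K4me3, H3K27ac and Pol II. Among 7 luminal markers, ERBB3, FOXA1 and KRT19 held all of them, PGR had H3K4me3 alone, and ESR1, GATA3 and CDH1 had no region of the 3 lists.

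The sequence in front of the genes is shown before the marks because the E2F site is what these promoters are best known for. Promoter sequences of 300 bases, from 250 before the start to 50 after it, were taken from RefSeq (GRCh38.p14) for 37 of the 43 members. MCM4, MCM5, GINS4, CCND1, CCNE2 and CDK2 had no entry in that table. An E2F word was counted when TTTGGCGC, TTTCCCGC, TTTGGCGG or TTTCGCGC occurred on either strand, and overlapping words were each counted. Such a word was present in 22 of 37 members (59.5%), against 4.65% of 15238 promoters in all and 6% of the 9732 promoters whose gene carried H3K27ac. Of the 31 words in members, 25 (80.6%) lay within 100 bases before and 50 after the start, against 51.3% of 748 words in all promoters. Within 1000 bases around the canonical TSS on GRCh37, which could be read for all 43 members, 25 (58.1%) held an E2F word, MCM4, MCM5 and CCND1 among them, against 10.6% of all genes. The CCAAT box (CCAAT on either strand) was found in 22 of 37 members, against 36.6% of all promoters. The CHR word (TTTGAA or TTTAAA on either strand) was found in 4 of 37 members, CCNB1, CCNE1, CDK1 and E2F3, against 19.3% of all promoters. Other spellings of the element were not searched, so a promoter without a match, CCNA2 included, may still hold one. The AP-1 word (TGANTCA, which reads the same on both strands) was found in 1 of 37, in the promoter of GINS1, against 5.71%. A match is a run of letters and not a measured binding site.

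**Figure D1:**
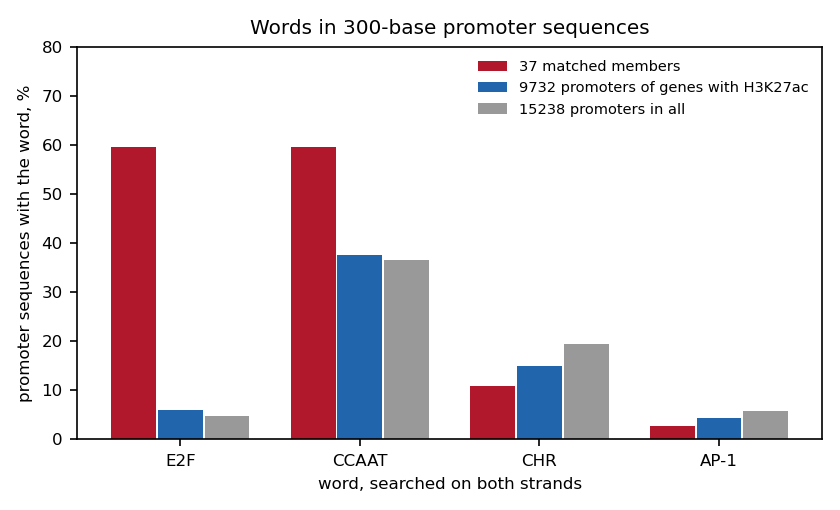
Share of 300-base promoter sequences (vertical axis, %) that hold each word on either strand, for 37 matched members (red), 9732 promoters of genes with H3K27ac (blue) and 15238 promoters in all (grey). E2F words stood in 59.5% of members and 4.65% of all promoters, while CHR and AP-1 words were no more frequent in members than in all promoters.

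The 150 bases directly before the canonical TSS, outside any annotated exon, are printed for 10 members in the order of their roles, from the GRCh37 genome on the strand of the gene, with E2F, CHR and CCAAT words in capitals. CDC6 (chr17:38443981-38444130, plus strand) and CDT1 (chr16:88870047-88870196, plus strand) were chosen as the loaders of the helicase. MCM6 (chr2:136634014-136634163, minus strand) stands for the ring and GINS2 (chr16:85722561-85722710, minus strand) for the active helicase, and POLE (chr12:133263929-133264078, minus strand) is the catalytic subunit of the leading-strand polymerase. CCNB1 (chr5:68462827-68462976, plus strand) and CCND1 (chr11:69455774-69455923, plus strand) are the mitotic and the G1 cyclin, and E2F1 (chr20:32274192-32274341, minus strand), E2F2 (chr1:23857726-23857875, minus strand) and E2F3 (chr6:20401960-20402109, plus strand) are the factors themselves.
CDC6: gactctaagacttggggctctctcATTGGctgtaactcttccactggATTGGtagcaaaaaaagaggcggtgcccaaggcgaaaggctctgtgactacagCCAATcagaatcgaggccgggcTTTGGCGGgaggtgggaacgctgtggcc
CDT1: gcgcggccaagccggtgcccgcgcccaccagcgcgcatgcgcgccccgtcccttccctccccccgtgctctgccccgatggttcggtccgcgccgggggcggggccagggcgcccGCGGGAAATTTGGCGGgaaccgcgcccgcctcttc
MCM6: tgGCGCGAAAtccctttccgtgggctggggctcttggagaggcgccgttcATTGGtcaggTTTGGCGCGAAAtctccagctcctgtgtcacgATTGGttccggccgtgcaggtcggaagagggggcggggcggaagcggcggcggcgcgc
GINS2: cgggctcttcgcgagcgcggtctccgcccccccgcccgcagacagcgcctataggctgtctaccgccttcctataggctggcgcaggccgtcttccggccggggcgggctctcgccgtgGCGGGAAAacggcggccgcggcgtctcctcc
POLE: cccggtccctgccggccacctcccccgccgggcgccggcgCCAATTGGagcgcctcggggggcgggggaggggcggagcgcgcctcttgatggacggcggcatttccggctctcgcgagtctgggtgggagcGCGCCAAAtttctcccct
CCNB1: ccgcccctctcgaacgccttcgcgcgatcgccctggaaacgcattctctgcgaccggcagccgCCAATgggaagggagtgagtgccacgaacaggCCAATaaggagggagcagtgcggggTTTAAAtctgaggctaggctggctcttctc
CCND1: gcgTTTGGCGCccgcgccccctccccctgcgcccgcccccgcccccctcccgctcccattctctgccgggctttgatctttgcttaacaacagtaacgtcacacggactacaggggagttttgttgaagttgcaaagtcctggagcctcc
E2F1: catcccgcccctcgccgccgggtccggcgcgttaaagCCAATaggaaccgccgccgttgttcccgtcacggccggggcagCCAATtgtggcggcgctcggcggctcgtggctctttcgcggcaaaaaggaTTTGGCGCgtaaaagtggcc
E2F2: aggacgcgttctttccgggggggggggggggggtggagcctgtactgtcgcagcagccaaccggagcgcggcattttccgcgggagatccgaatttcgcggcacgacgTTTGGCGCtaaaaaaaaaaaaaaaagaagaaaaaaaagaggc
E2F3: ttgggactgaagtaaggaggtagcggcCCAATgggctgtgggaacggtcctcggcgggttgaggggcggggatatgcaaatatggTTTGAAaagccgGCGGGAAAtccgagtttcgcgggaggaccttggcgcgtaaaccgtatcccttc

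In these stretches CDT1 carried the words GCGGGAAA and TTTGGCGG side by side. MCM6 carried TTTGGCGC overlapping GCGCGAAA, and a further GCGCGAAA farther from the start. CDC6 held 1 E2F word and 3 CCAAT boxes. CCNB1 held no E2F word, and had 2 CCAAT boxes followed by TTTAAA. E2F1, E2F2 and CCND1 shared TTTGGCGC, which stood near the start in E2F1 and E2F2 and at the far end of the stretch in CCND1. E2F3 and GINS2 had GCGGGAAA.

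H3K4me3, H3K27ac and Pol II were each listed at the promoter of 43 of 43 members, in a window of 3 kb centred on the canonical TSS (Wilson 95% interval of each share, 91.8 to 100%). Over all protein-coding genes the shares were 62.7% for H3K4me3, 61.4% for H3K27ac and 58.4% for Pol II, and 56.2% of genes carried all of them together. Among the 12218 genes with H3K27ac in the window, called active genes here, 92% had Pol II. Intervals cover counting error over the genes only, and since genes are not replicates, no test was made of the difference. When Pol II peaks narrower than the median of the list were left out, 26 of 43 promoters still had one.

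**Figure D2:**
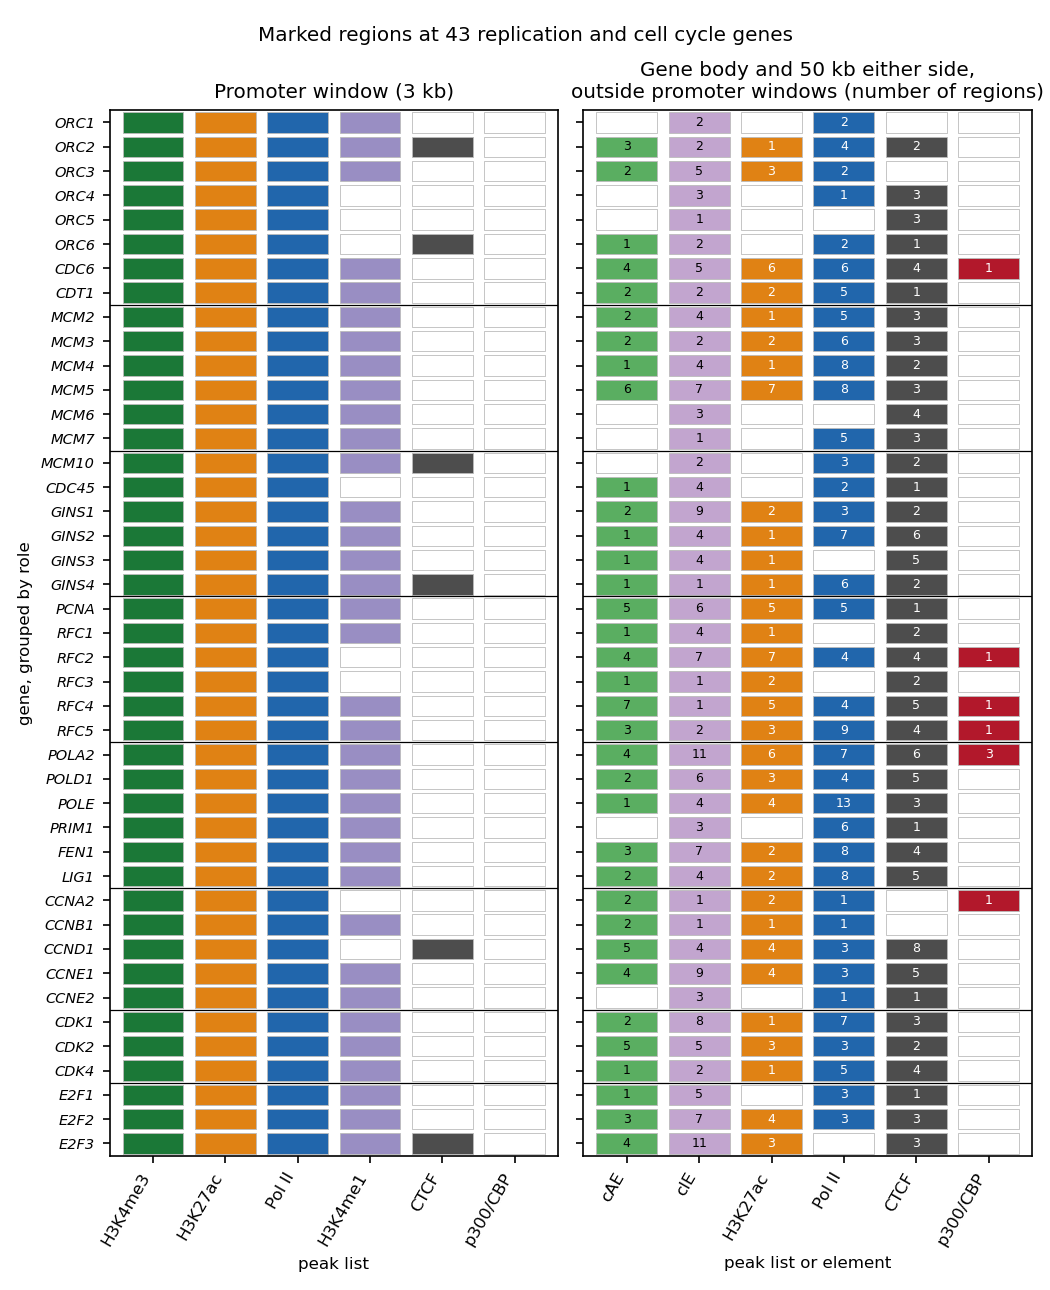
Each row is a member, grouped by role, and a filled cell marks a listed region in the 3-kb promoter window (left) or in the gene body and 50 kb either side, outside all promoter windows (right, with the number of regions). The H3K4me3, H3K27ac and Pol II columns are filled for 43 of 43 members at the promoter, the p300/CBP column is empty there, and distal p300/CBP is filled in 6 rows.

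**Figure D3:**
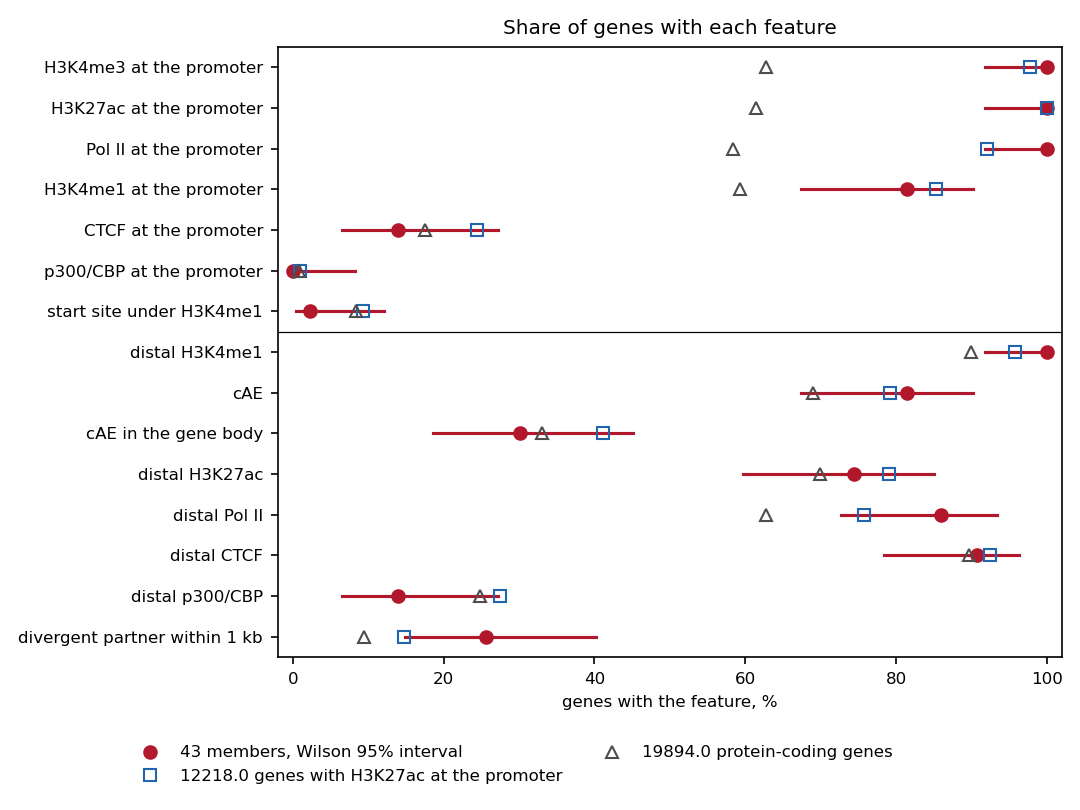
Share of genes with each feature (horizontal axis, %) for the 43 members (red, with Wilson 95% intervals), the 12218 active genes (blue squares) and 19894 protein-coding genes (triangles), promoter features above the line and distal features and divergent partners below it. The members' interval for H3K4me1 at the promoter and for cAEs spans the share in active genes.

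The promoter regions were about as wide as those of active genes. Where a region covered the TSS, H3K4me3 had a median width of 2500 bp in members (1500 to 10250, n = 39) and 2400 bp in active genes, and H3K27ac had a median of 2300 bp (1050 to 11100, n = 38) against 2350 bp. H3K4me3 reached a median of 803 bp upstream and 1570 bp into the gene. The TSS lay under H3K4me3 in 39 members, under H3K27ac in 38 and under Pol II in 42, against 83%, 77.4% and 81.6% of active genes.

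Among the licensing genes, the H3K4me3 region was 4400 bp at ORC6, the smallest subunit of the origin recognition complex, and 4200 bp at CDT1, the MCM loading factor. It was 3650 bp at ORC4, 3350 bp at ORC2, 3100 bp at ORC1, 2550 bp at ORC3, and 1850 bp at both ORC5 and CDC6. H3K27ac ranged from 1900 bp at ORC5 to 4200 bp at CDT1. At CDC6 the start site lay near the upstream edge of H3K4me3, which began 30 bp before it.

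In the MCM ring, MCM7 had the widest regions, of 3400 bp for H3K4me3 and 4200 bp for H3K27ac. MCM3 followed with 3000 and 3500 bp, MCM5 and MCM6 each had 2200 bp of H3K4me3, and MCM2 had 2050 bp. The H3K27ac regions of MCM5 and MCM6 were 1500 and 1550 bp. Among the genes that activate the helicase, CDC45 had 3600 bp of H3K4me3 and MCM10, which is needed to start unwinding, had 2600 bp. The GINS subunits lay lower, with 2200 bp at GINS2, 2100 bp at GINS1, 1950 bp at GINS4 and 1500 bp at GINS3, the narrowest of the list together with CDK4. Of the H3K27ac regions, GINS2 (1200 bp) and GINS3 (1350 bp) were 2 of the 3 narrowest.

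At the replication fork, the clamp gene PCNA had 3750 bp of H3K4me3 and 3150 bp of H3K27ac, most of it inside the gene. RFC1, the large subunit of the clamp loader, had 1550 and 1050 bp, the latter the narrowest H3K27ac region of the 38. The other clamp loader genes lay between 1950 bp (RFC5) and 2600 bp (RFC4) for H3K4me3. The flap endonuclease gene FEN1 had 3600 bp, the polymerase delta gene POLD1 had 2500 bp, POLA2 (the B subunit of polymerase alpha) and the ligase gene LIG1 had 2350 bp each, and the primase gene PRIM1 had 1800 bp.

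The cell cycle drivers held both extremes. CCND1, which encodes cyclin D1, had the widest H3K4me3 and H3K27ac of all members, 10250 and 11100 bp, wider than 99.7% and 99.3% of active genes. Next came E2F3 with 5100 bp and CDK1 with 4750 bp of H3K4me3, wider than 95.3% and 93.7% of active genes. The cyclin genes CCNE2, CCNA2 and CCNB1 had 4050, 3100 and 2900 bp. CDK2 had 1850 bp, CDK4 1500 bp and E2F2 2150 bp. CDK4 had a second H3K4me3 region in its promoter window, and H3K4me3 covered 1800 bp of that window in all. Medians by role ran from 1850 bp in the CDKs (n = 3) to 3575 bp in the cyclins (n = 4) and 3625 bp in the E2Fs (n = 2), and the ranges of these roles overlapped.

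At 5 members the canonical TSS fell into a gap between listed regions. MCM4, POLE, CCNE1 and E2F1 lacked both H3K4me3 and H3K27ac over the start, and E2F3 lacked H3K27ac alone, while regions stood on both sides in each. The gaps were 500 to 1250 bp long, the longest at CCNE1. The GC content of the gap was 62.2% at E2F3 and from 73.2 to 82.3% at the other genes. Within 250 bp of the TSS these 5 genes had a median GC content of 76.2% (62.4 to 81.4%), against 65.2% (57.6 to 77.6%) at the other 38 members and 67.6% in active genes. The part of the GC content in the gaps was not tested. The authors had joined runs of signal closer than a set gap, so shorter interruptions cannot be seen in the lists.

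**Figure D4:**
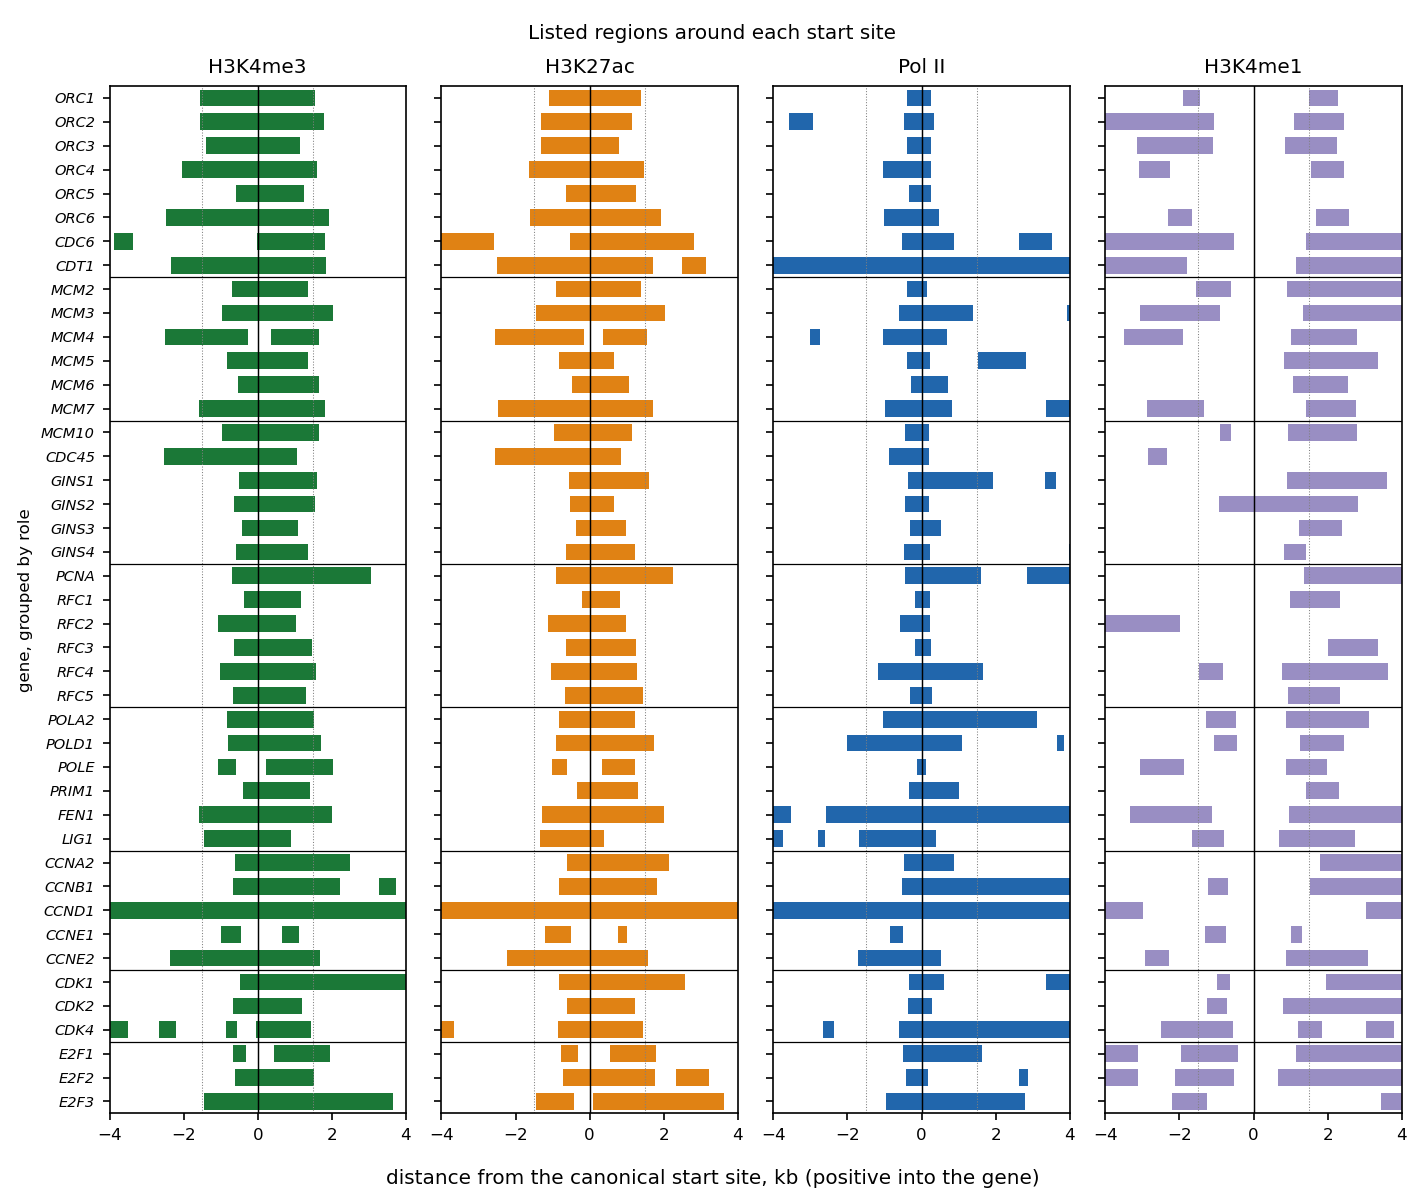
Listed regions of H3K4me3, H3K27ac, Pol II and H3K4me1 (panels) around the TSS of each member (rows, by role), as distance from the TSS in kb, positive into the gene; dotted lines mark the edges of the promoter window. H3K4me3 and H3K27ac cover most start sites, H3K4me1 leaves them free in 42 of 43, and CCNE1, E2F1, POLE and MCM4 show a gap at the start.

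H3K4me1 flanked the promoters and left the start free. It was listed in the window of 35 of 43 members (81.4%, interval 67.4 to 90.3%), against 59.3% of all genes and 85.3% of active genes. Only GINS2 had the TSS itself under H3K4me1 (2.33%), against 9.32% of active genes. Regions stood on both sides of the TSS in 18 members, on the downstream side alone in 13, and on the upstream side alone in 3, CDK1, CCNB1 and E2F3. In active genes 39.1% had both sides, 18.4% downstream alone and 18.5% upstream alone. The nearest edge lay a median of 714 bp upstream (n = 21, 410 to 1456 bp) and 982 bp downstream (n = 31, 675 to 1495 bp). Since the edges lay so far out, the count depended on the window, with 4 members in a window of 1 kb and 15 where the centre of the region had to be inside 3 kb.

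The 8 members with no H3K4me1 in the window were ORC4, ORC5, ORC6, CDC45, RFC2, RFC3, CCNA2 and CCND1. In 7 of them a region began shortly beyond it, from 1556 bp away at ORC4 to 2974 bp at CCND1, and ORC5 had none within 69211 bp of the TSS. At CCND1, H3K4me3 and H3K27ac filled the window and H3K4me1 overlapped their outer parts, with regions from -6123 to -2973 bp and from 3027 bp onwards, counted from the TSS. H3K4me3 there reached 5273 bp upstream and 4977 bp into the gene, and H3K27ac 5373 and 5727 bp.

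No member had p300/CBP at its promoter (0 of 43, which allows up to 8.2% by the Wilson interval). This was near the background, since 0.769% of all genes and 0.99% of active genes had it. CTCF was listed at 6 of 43 promoters (14%, interval 6.56 to 27.3%), against 17.6% of all genes and 24.4% of active genes. Those were ORC2, ORC6, MCM10, GINS4, CCND1 and E2F3. The peak lay inside the gene at ORC2 (132 to 532 bp from the TSS), ORC6 (480 to 630 bp) and CCND1 (27 to 127 bp), and upstream at MCM10 (-407 to -57 bp), GINS4 (-479 to -129 bp) and E2F3 (-1309 to -1009 bp). A core CTCF word of 8 letters, CAGGGGGC, was found in the peak of MCM10. The search covered that word and CAGATGGC, CAGGTGGC, CAGAGGGC and the same 4 with T as the first letter, on both strands, and 42.5% of all CTCF peaks and 36.8% of those in promoter windows held one, against 1 of the 6.

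Pol II extended over whole genes in a few members. It covered a median of 6.25% of the gene body, against 2.7% in active genes, and at least 50% of it in 7 of 43 (16.3%, interval 8.12 to 30%), against 9.9% of active genes. The median gene length was 21937 bp in members and 33346.5 bp in active genes, and the part of length in the difference was not tested. With the promoter window left out, the median was 4.21% in members and 0% in the 12049 active genes that reach beyond it.

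The 4 genes covered from end to end were CDT1, FEN1, CCNB1 and CCND1. Their Pol II regions were 21300, 28250, 13600 and 21450 bp wide, against a median of 1325 bp over member start sites (250 to 28250, n = 42) and 1150 bp in active genes. The region at FEN1 also covered sequence of TMEM258, FADS1 and FADS2, that at CDT1 touched APRT and GALNS, and that at CCND1 touched LTO1, so that Pol II there cannot be assigned to 1 gene. At CCNB1, which encodes the mitotic cyclin, the region ran from 526 bp before the TSS to 13074 bp beyond it, past the end of the 11111-bp gene, and touched no other protein-coding gene.

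CDK4 (66.3% of the gene body), MCM7 (65%) and CCNA2 (55%) followed. The Pol II region at CDK4, 8400 bp wide, also touched TSPAN31. E2F1 had 47.3%, MCM3 44.2% and CDC6 32.7%, and both PCNA (30.6%) and CDK2 (32.6%) lay near them. At E2F1 and CDK2 the Pol II region over the TSS reached only 1640 and 287 bp into the gene. The rest of their coverage came from regions that touched the promoter window of another gene, so it cannot be assigned to E2F1 or CDK2. At the low end, Pol II was confined to the start in RFC3 (0.232%), RFC1 (0.31%), ORC5 (0.361%), MCM10 (0.39%) and ORC3 (0.408%), all with a region of 400 to 650 bp at the TSS. CCNE1, cyclin E1, had no Pol II over the gene body at all, and its promoter peak of 350 bp lay 498 bp upstream of the canonical TSS. Its paralogue CCNE2 had 11.9%. POLE had the narrowest region over a start site, 250 bp.

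**Figure D5:**
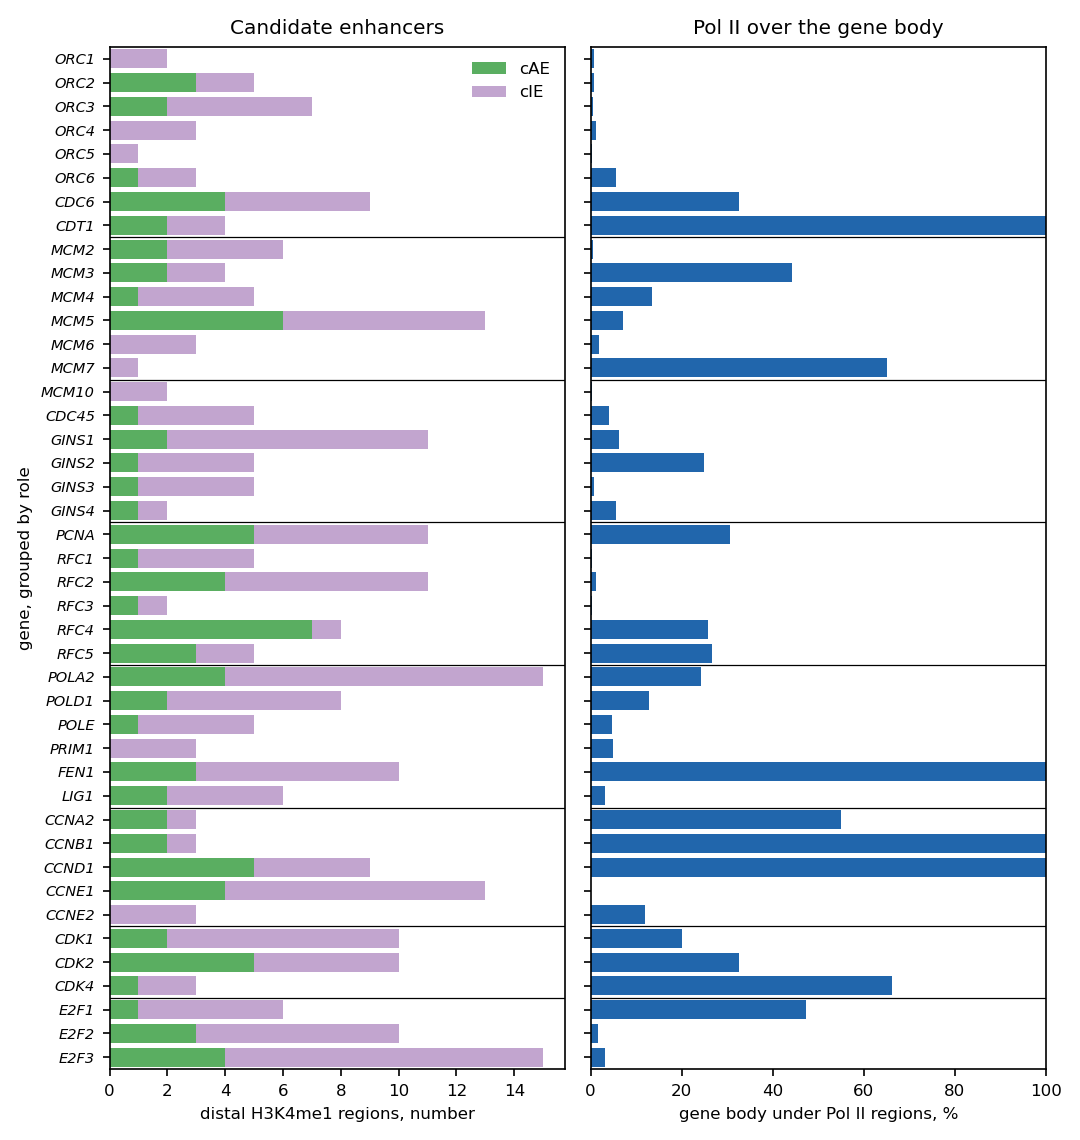
Left, number of distal H3K4me1 regions within the gene body and 50 kb either side of each member, with H3K27ac (cAE, green) and without (cIE, violet); right, share of the gene body under Pol II regions (%). RFC4 leads in cAEs with 7 and MCM5 follows with 6, while 4 genes are covered by Pol II over 100% of their length.

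Away from promoters, candidate active enhancers (cAEs) were H3K4me1 regions that touched no protein-coding promoter window and overlapped H3K27ac, and candidate inactive enhancers (cIEs) were those without H3K27ac. They were read in the gene body and 50 kb either side. The overlapping H3K27ac region could itself reach into a promoter window, so a cAE may adjoin the marked region of a promoter. ORC6, CDC45 and E2F1 each had 1 cAE but no H3K27ac region outside promoter windows. At least 1 cAE was present at 35 of 43 members (81.4%, interval 67.4 to 90.3%), against 69% of all genes and 79.2% of active genes. Distal H3K4me1 was found at 43 of 43 (95.8% of active genes), distal H3K27ac at 32 (74.4%, against 79%), distal Pol II at 37 (86%, against 75.7%) and distal CTCF at 39 (90.7%, against 89.7% of all and 92.5% of active genes). A cAE inside the gene body was found at 13 (30.2%, interval 18.6 to 45.1%), against 41.1% of active genes. Member genes were shorter (median 21937 bp, against 33346.5 bp in active genes), and the part of length in that share was not tested. The surroundings of members thus held active marks about as often as those of active genes, while no measurement here assigns an enhancer to a gene.

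In all, 91 cAEs and 179 cIEs lay around the members, whose surroundings did not overlap one another. RFC4, a clamp loader gene, had 7 cAEs, MCM5 had 6, and PCNA, CCND1 and CDK2 had 5 each. At RFC4 a group of 4 cAEs stood upstream, between -21.98 and -8.48 kb from the TSS, and another of 6900 bp covered the end of the gene and part of EIF4A2. At MCM5, 4 of the 6 lay upstream, between -49.53 and -22.03 kb from the TSS. At CDK2 and PCNA most cAEs lay in other genes, among them DGKA, PYM1 and SUOX near CDK2, and TMEM230 and CDS2 near PCNA.

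CCND1 had a cAE of 11850 bp that began 3.03 kb downstream of the TSS and covered most of the gene, and a further 1 of 3150 bp just upstream of the promoter. It also had 8 distal CTCF peaks, the most of any member. CCNB1, CDK1 and CCNA2 each had a cAE within the gene, of 6300, 4550 and 3750 bp, starting 1.52, 1.97 and 1.79 kb from the TSS. These were among the nearest cAEs of any member, against a median distance of 18203 bp over 35 members and 14061 bp in active genes. CCNB1, CDK1 and CCNA2 had no H3K27ac region in the gene body outside promoter windows. Their cAEs therefore overlapped the H3K27ac region of the gene's own promoter and adjoin it.

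No cAE was listed around ORC1, ORC4, ORC5, MCM6, MCM7, MCM10, PRIM1 and CCNE2. Each still had H3K27ac at the promoter and 1 to 3 cIEs in its surroundings. They included 3 subunits of the origin recognition complex and 2 of the MCM ring.

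Around members, larger shares of the cAEs carried H3K4me3 and Pol II and a smaller share carried p300/CBP than around other active genes, and these differences were not tested. Of the 91, 51 (56%, interval 45.8 to 65.8%) overlapped H3K4me3, against 38.3% of the 16798 cAEs within 50 kb of other active genes. Pol II overlapped 42 (46.2%, interval 36.3 to 56.3%), against 24.5%. CTCF overlapped 18 (19.8%, interval 12.9 to 29.1%), against 18%, and p300/CBP overlapped 5 (5.49%, interval 2.37 to 12.2%), against 16.7%. The median width was 2400 bp in members and 2650 bp in the comparison. Regions of H3K4me3 and Pol II that reached into a promoter window were counted too, in members and in the comparison. At CCND1, 2 cAEs overlapped H3K4me3 although no H3K4me3 region there lay outside promoter windows. Part of the H3K4me3 and Pol II shares may therefore belong to promoter regions. The cAEs around 1 gene share their neighbourhood and are not independent, so the intervals are too narrow.

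Distal p300/CBP was listed around 6 of 43 members (14%, interval 6.56 to 27.3%), against 24.8% of all genes and 27.5% of active genes. With 25 kb either side the count was 3. The nearest p300/CBP peak lay a median of 293380 bp from the member TSSs, against 174920 bp in active genes. The 8 peaks were 3 at POLA2 and 1 each at CDC6, RFC2, RFC4, RFC5 and CCNA2, and 7 of them overlapped both H3K4me1 and H3K27ac. The peak near CDC6 lay 26.82 kb downstream inside RARA, that near RFC4 53.22 kb downstream and that near CCNA2 33.79 kb downstream, the latter pair outside protein-coding genes. The peak near RFC5 lay in WSB2, 35.89 kb downstream. At POLA2, peaks stood 13.27 and 18.07 kb into the gene, outside exons, and the third 55.17 kb downstream in CDC42EP2.

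The AP-1 word TGANTCA, the site of Fos and Jun family factors, was found in 5 of these 8 peaks, against 28.1% of all p300/CBP peaks and 43.8% of those in cAEs. It is shown for 3 peaks that hold it and touch no exon, from GRCh37 on the plus strand, with the word in capitals. The listed end is the base after the peak. They are CDC6 (chr17:38470951-38471201), RFC4 (chr3:186470751-186471051) and POLA2 (chr11:65042701-65043001).
CDC6: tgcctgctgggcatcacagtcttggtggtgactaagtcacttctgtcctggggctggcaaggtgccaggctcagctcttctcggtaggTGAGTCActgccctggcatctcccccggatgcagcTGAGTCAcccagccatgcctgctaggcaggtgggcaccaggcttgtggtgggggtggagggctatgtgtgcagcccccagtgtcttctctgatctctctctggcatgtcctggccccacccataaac
RFC4: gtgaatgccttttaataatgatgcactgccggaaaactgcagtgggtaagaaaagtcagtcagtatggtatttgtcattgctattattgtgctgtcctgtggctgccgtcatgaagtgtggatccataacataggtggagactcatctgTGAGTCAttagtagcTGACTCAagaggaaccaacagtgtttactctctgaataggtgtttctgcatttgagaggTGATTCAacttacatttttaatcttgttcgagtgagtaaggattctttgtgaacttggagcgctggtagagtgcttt
POLA2: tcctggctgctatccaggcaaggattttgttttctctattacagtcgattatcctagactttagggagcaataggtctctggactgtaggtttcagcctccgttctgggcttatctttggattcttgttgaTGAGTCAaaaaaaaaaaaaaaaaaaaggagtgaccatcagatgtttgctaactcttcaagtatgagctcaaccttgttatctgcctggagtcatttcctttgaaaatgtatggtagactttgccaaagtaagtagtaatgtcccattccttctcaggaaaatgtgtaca

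The peak near CDC6 held 2 AP-1 words and that near RFC4 held 3, while the printed peak of POLA2 held 1. The AP-1 word was in 1 of 37 member promoters, and E2F words were in 22 of the 37. Beyond the members too, the AP-1 word was less frequent in promoters (4.37% of those of genes with H3K27ac) than in p300/CBP peaks (28.1%).

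A protein-coding gene was transcribed away from 11 members (25.6%, interval 14.9 to 40.2%) from a TSS within 1 kb, against 9.45% of all genes and 14.7% of active genes. The partners were PRPF38A at ORC1 (179 bp), RARS2 at ORC3 (148 bp), MBD5 at ORC4 (354 bp), VPS35 at ORC6 (481 bp), PRKDC at MCM4 (805 bp) and AP4M1 at MCM7 (246 bp). The others were UFD1 at CDC45 (727 bp), PXMP2 at POLE (245 bp), TMEM258 at FEN1 (312 bp), ZSWIM9 at LIG1 (336 bp) and PMEL at CDK2 (788 bp). Promoter regions at these genes are shared and cannot be assigned to either partner. H3K4me3 reached a median of 1581 bp upstream in members with a partner (n = 9) and 666.5 bp in those without (n = 30), and 1551 and 804 bp in active genes.

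The same marks were read at other genes of the pathway. Of 57 further replication and cell cycle genes, 56 carried H3K4me3, H3K27ac and Pol II at the promoter. RPA3, a subunit of the single-strand binding protein, had no region of these 3 lists in the window of its canonical TSS and had H3K4me1. Elsewhere in its gene body all 3 were listed, over 2.99% (H3K4me3), 7.86% (H3K27ac) and 1.28% (Pol II) of its length. H3K4me1 was present at 51 promoters, CTCF at 6 and p300/CBP at 0. A cAE was found around 46 of the 57 and distal p300/CBP around 12. An E2F word stood in 11 of the 46 promoter sequences that could be matched.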

How the data were processed

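Per the labels and the study's methods, chromatin of MDA-MB-231 cells was immunoprecipitated and sequenced, reads were aligned to hg19 (BWA-backtrack in the methods, Bowtie2 in the submitters' processing notes) and turned into signal in bins of 50 bp, and the merged replicates were thresholded into peaks. The authors deposited positions only, in base pairs, named as from scaled signal (Pol II), from signal scaled and with its background subtracted (p300/CBP and histone marks), or with neither (CTCF). No depth or value per peak is given. CTCF had 39596 peaks, Pol II 26065, p300/CBP 13984, H3K4me3 24693, H3K27ac 41034 and H3K4me1 88319. The p300/CBP, Pol II and CTCF lists are longer than the peak sets the study describes, for a reason not given in the sources used here, and were used as deposited.

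Genes came from GENCODE release 44 on GRCh37, with 1 canonical TSS each. An overlap of at least 1 bp counted. Shares have 95% Wilson intervals, which cover counting error only, and no test was made, since the lists hold no replicates and no second condition. Members, role groups, words and comparison lists were chosen with earlier results of these data known. Every member could be named, with full values for the widest and narrowest promoter regions, promoter CTCF or p300/CBP, distal p300/CBP, and the most or no cAEs. Overlap counting was tested on simulated data and gave 0 errors in 6002 comparisons. Python 3.11.15, NumPy 2.4.6, pandas 2.3.3, pysam 0.24.0 and matplotlib 3.10.9 were used.

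Of the p300/CBP peaks with an AP-1 word outside exons, the sequence of 1 is not reported here.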

Additional observations from a re-analysis of the deposited data

How the results depend on the processing

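Of 58 alternative values for 17 results, 49 were classed as the same and 9 as moved. A count was classed as the same within 1.5 times the main count, and a median only when equal to it. H3K4me1 at the promoter fell from 35 members to 4 in a 1 kb window and to 15 where the centre of the region had to be inside. With peaks narrower than the median of a list left out, 26 of 43 members had promoter Pol II, 20 in place of 32 had distal H3K27ac, and the median share of gene body under Pol II was 5.14% in place of 6.25%. That share was 4.21% without the promoter window. Distal p300/CBP was found at 3 members in place of 6 with 25 kb flanks. The median H3K4me3 width was 2350 bp for the widest region in the window and 2425 bp for the basic TSS with the widest region, in place of 2500 bp. H3K4me3 and H3K27ac at the promoter, cAEs, CTCF, divergent partners and E2F words stayed within 1.5 times their counts under the alternatives tried. Members with a cAE still ranged from 25 (narrow peaks left out) to 39 (100 kb flanks), around the main 35. Promoter CTCF ranged from 4 to 7 around 6, divergent partners from 8 to 11, and E2F words from 22 to 28.

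No paired analysis was possible because peaks had been called on merged replicates. The lists give no height or depth, so a missing region cannot be told from 1 just under a threshold, and widths depend on how runs were joined. Marks over shared or neighbouring promoters cannot be assigned to a gene, and the lists say nothing of RNA levels or of the cell cycle phase of the cells. Words were searched in the reference genome, not in the genome of the line.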
